A study of Schizosaccharomyces pombe with 6 samples.

Results

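The vacuole of fission yeast is where the cell breaks down and recycles its own material. Autophagy brings cytoplasm there inside a double membrane, the autophagosome, and the vacuolar protein sorting (Vps) pathway carries newly made hydrolases and endocytosed membrane proteins to it through the endosome. In yeasts these routes are best known from starvation for nitrogen, when the proteases of the vacuole release amino acids for reuse.

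The expression of 55 genes of these routes was examined after treatment of fission yeast with hydrogen sulfide. The genes were chosen by name, as those whose symbol in the array annotation is atg, vps, pep or vam followed by a number, together with the protease genes isp6, psp3 and cpy1. They are 55 of the 2898 *S. pombe* genes that the annotation pairs with a probe set of their own, each has 1 probe set, and all 55 had a mean log2 signal above the background of the array. NaHS, which gives off hydrogen sulfide when dissolved, was added at 50 µM for 30 min at 30°C to 3 cultures of wild-type *S. pombe* 972 h-, while 3 cultures were left untreated. All cultures had the same genotype and were grown in liquid medium to an OD600 of 0.5, and the RNA of each was hybridised to 1 Affymetrix Yeast Genome 2.0 array. Of the genes, 3 have another name in the RefSeq annotation. The probe set named atg14 belongs to the gene now called vps38 (the name atg14 is now borne by another gene), that named atg18 to atg1801, and that named vps902 to muk1. They are called vps38, atg1801 and muk1 below.

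The deposited values are on a log2 scale. The median signal of an array over the 4965 probe sets tested was between 9.49 and 9.58, and the 99th percentile of the 2601 budding yeast probe sets, which show the background because only *S. pombe* RNA was hybridised, was between 3.69 and 4.16. Over the 55 genes, the lowest value on any array was 4.86 and the highest 12.58. Differences are given as the log2 fold change, NaHS minus untreated, ± the standard error (SE) of limma with 3 arrays per group, and a gene was taken to have changed when its p, adjusted over all 4965 probe sets, was below 0.05. Signals come from whole cultures, so that less of a transcript per cell and fewer cells that express it cannot be told apart. The arrays with replicate number 1 stood apart from those numbered 2 and 3 in both groups, and fits with the replicate number as a block and fits without both arrays of replicate 1 are given beside the results that they move.

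Of the 55 genes 4 rose after NaHS and 0 fell. They were isp6, vps3, atg15 and vps32, which encode a protease of the vacuole, a tether of the endosome, a lipase of the vacuole and a subunit of the machine that buds vesicles into the endosome. This was 7.27% of the genes, where 3.97% of all tested probe sets rose, 3.67% fell and 7.63% changed in either direction. At an unadjusted p below 0.05, limma gave 14 higher and 0 lower, against 11.1% of all probe sets higher and 11.4% lower. The changes were small. The signal of isp6 was 50.3% higher, that of vps3 34.0%, that of atg15 26.5% and that of vps32 23.3%. Only isp6 was called with a rise of over 1.5-fold, as were 2.42% of all probe sets. In the fit with the replicate block 22 of the genes rose and 0 fell, where 16.3% of all probe sets rose and 16.4% fell, and 18 of them passed only in that fit (12.3% of all probe sets). Without replicate 1 of both groups 8 rose and 0 fell, where 6.97% rose and 7.33% fell. When 1 array was left out, isp6 alone passed without NaHS replicate 1 or untreated replicate 1, and 0 of the 55 passed without NaHS replicate 2 or 3 or untreated replicate 2 or 3.

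Values of the log2 fold change were above 0 for 47 of the 55 genes and below 0 for 8, where 52.6% of all tested probe sets were above 0 and 47.4% below. They exceeded 0.2 for 24 genes (17.8% of all probe sets) and were under -0.2 for 1, vps51 (18.4%). The median was 0.18 for the 55 genes and 0.01 for all tested probe sets. Within the numbered pairs of cultures, the median difference of the genes was 0.19 in replicate 1, 0.19 in replicate 2 and 0.14 in replicate 3, and NaHS was above untreated in all 3 pairs for 35 genes (33.3% of all probe sets) and below it in all 3 for vps11, atg22 and vps51 (30.2%). All 3 NaHS arrays lay above all 3 untreated arrays for 17 genes, and below them for 1, vps11, which encodes a tether subunit. The background was 14.6% of probe sets above and 13.7% below. Quantile normalization moved the median of the genes to 0.14 and turned the signs of vps38, vps53 and vam6, and centring each array on its median turned that of vps1302. As deposited these were at 0.04, 0.02, 0.02 and 0.01. With NaHS replicate 1 left out 40 of the 55 genes were above 0, and with any other single array left out 45 to 47. Without replicate 1 of both groups 45 were above 0. The share of all probe sets above 0 was not counted for these fits.

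**Figure D1:**
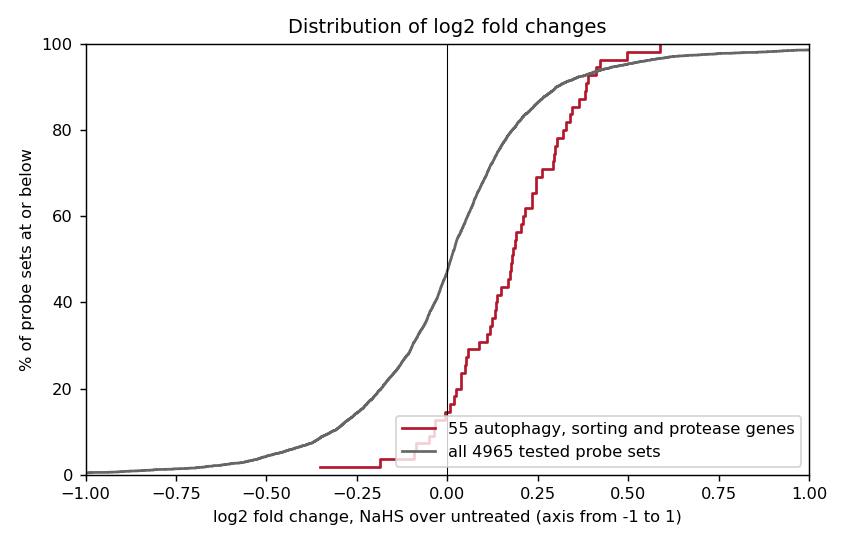
Cumulative share of probe sets (vertical axis, %) by log2 fold change (horizontal axis, NaHS over untreated) for the 55 autophagy, sorting and protease genes and for all 4965 tested probe sets. The line of the 55 genes lies to the right of the other over most of its course, with a median of 0.18 against 0.01.

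Proteases of the vacuole held the largest change. The gene isp6 (SPAC4A8.04) encodes a serine protease of the subtilisin family. Its log2 signal was 10.66, 10.86 and 10.72 on the NaHS arrays and 10.05, 10.18 and 10.25 on the untreated arrays, in the order of replicates 1, 2 and 3. The lowest NaHS value lay 0.41 above the highest untreated value, so that the groups were well apart. This gave a log2 fold change of 0.59 ± 0.09 (SE, adjusted p = 0.0185), with differences of 0.61, 0.68 and 0.47 in the 3 pairs. The adjusted p was 0.0688 and 0.0646 without NaHS replicates 2 and 3, and 0.0940 and 0.0672 without untreated replicates 2 and 3. The study lists isp6 among its induced genes from these same arrays, so its rise here is not independent evidence.

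The gene psp3 encodes another serine protease of the subtilisin family. It had 11.39, 11.12 and 11.18 on the NaHS arrays and 11.10, 10.84 and 10.79 on the untreated arrays. Replicate 1 was the highest in both groups, and the lowest NaHS value was only 0.02 above the highest untreated value. At 0.32 ± 0.12 (SE) its log2 fold change did not pass (adjusted p = 0.191), while it passed in the fit with the replicate block (adjusted p = 0.0112) and without replicate 1 of both groups (adjusted p = 0.0385).

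The gene cpy1 encodes carboxypeptidase Y, whose missorting in budding yeast mutants defined the Vps pathway. It had 12.53, 12.38 and 12.58 on the NaHS arrays and 12.51, 12.46 and 12.41 on the untreated arrays, so that the groups overlapped. Its log2 fold change was 0.04, with a 95% interval between -0.16 and 0.23 (limma adjusted p = 0.890).

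The receptor that takes carboxypeptidase Y from the Golgi to the endosome is encoded by vps10. It had 10.74, 10.71 and 10.83 on the NaHS arrays and 10.53, 10.36 and 10.41 on the untreated arrays, without overlap. A log2 fold change of 0.33 ± 0.08 (SE) just missed the threshold (adjusted p = 0.0654). It passed with the replicate block (adjusted p = 0.0182), with an intensity trend in the prior variance (adjusted p = 0.0371) and without replicate 1 of both groups (adjusted p = 0.0354).

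**Figure D2:**
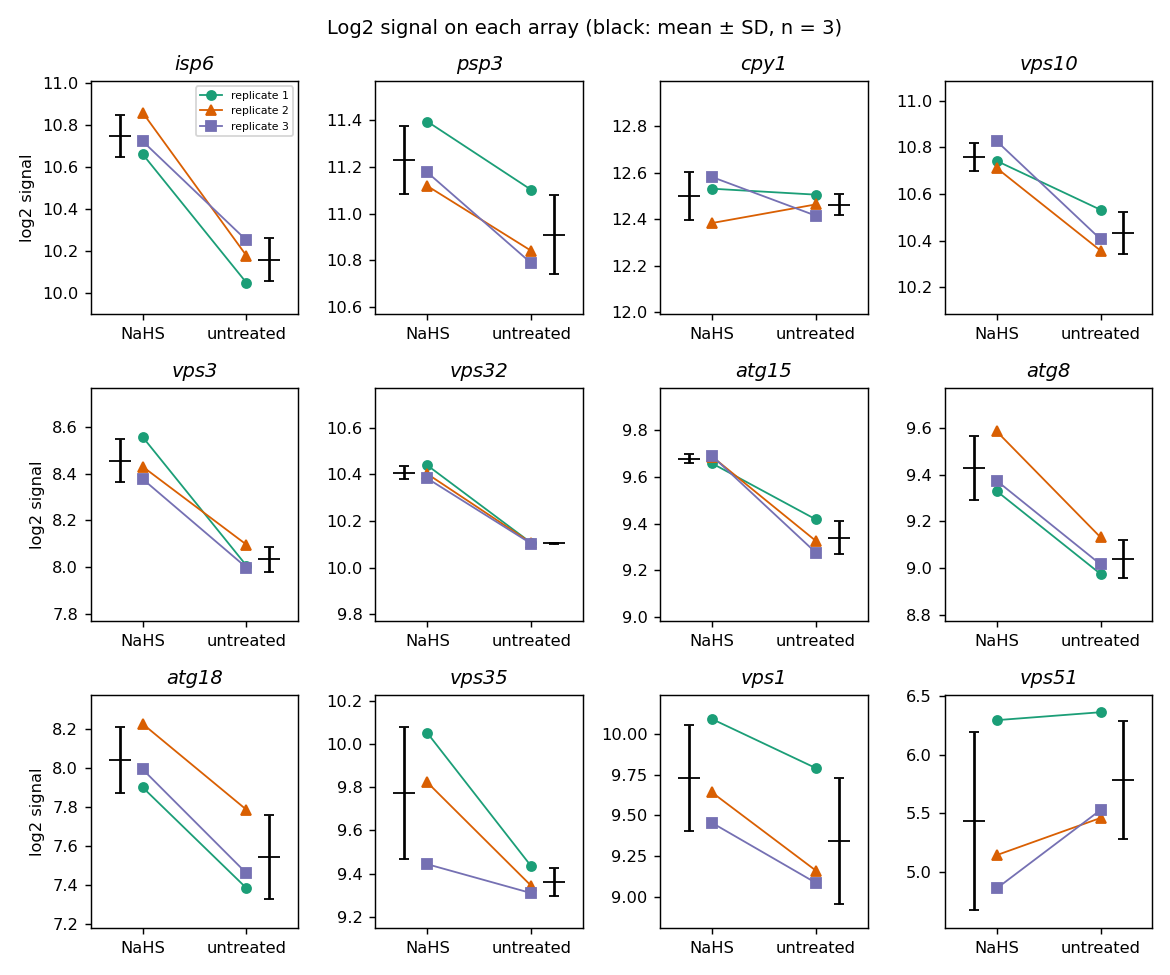
Log2 signal (vertical axis, with its own range in each panel) of 12 genes on the 3 NaHS arrays and the 3 untreated arrays, joined by replicate number, with the mean ± SD (n = 3) in black. For isp6, vps3, vps32 and atg15, the genes that rose, all NaHS arrays lie above all untreated ones, while for cpy1, vps1 and vps51 the groups overlap.

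Among the genes that start the autophagosome and supply its membrane, all 7 measured had a log2 fold change above 0 (median 0.29). None passed, and 3 were higher at an unadjusted p below 0.05. Of all tested probe sets 52.6% were above 0, 11.1% were higher at that p and 16.3% rose in the block fit. The counts of each role below are to be read against these shares. The largest value of the 7 was that of atg1801, which encodes a protein of the Atg18 family that binds phosphoinositides. It had 7.90, 8.23 and 7.99 on the NaHS arrays and 7.38, 7.78 and 7.46 on the untreated arrays. The groups lay 0.11 apart, and the SD within them was 0.17 with NaHS and 0.21 untreated. Its log2 fold change of 0.50 ± 0.14 (SE) did not pass (adjusted p = 0.0998), and passed with the replicate block (adjusted p = 0.00444). The others were atg9, for the transmembrane protein of the vesicles that seed the autophagosome (0.34), atg17, for a scaffold of the Atg1 kinase complex (0.30), atg20, for a sorting nexin (0.29), atg2, for a lipid transfer protein (0.19), atg1, for the kinase itself (0.14), and atg13, for its regulatory partner (0.13). Of these, atg9 and atg17 passed in the block fit (adjusted p = 0.0114 and 0.0214), and atg17 passed with quantile normalization. The limma SE was 0.31 for atg20, 0.37 for atg2 and 0.21 for atg13. NaHS was above untreated in only 2 of the 3 pairs for these 3 genes, and in all 3 pairs for the rest of the 7. With 1 array left out, the lowest values of atg20, atg2 and atg13 were 0.05, -0.08 and -0.08.

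Atg8 is a ubiquitin-like protein that is joined to lipid of the autophagosome by enzymes like those of ubiquitin. The signal of atg8 was 9.33, 9.59 and 9.37 on the NaHS arrays and 8.97, 9.13 and 9.02 on the untreated arrays, the lowest NaHS value being 0.20 above the highest untreated one. This was a log2 fold change of 0.39 ± 0.10 (SE), with an adjusted p of 0.0704, and of 0.00669 with the replicate block. The remaining genes of conjugation had smaller values. They were 0.23 for atg12, which encodes the other ubiquitin-like protein, 0.22 for atg4, for the protease that trims Atg8, 0.21 for atg3, for the E2-like enzyme, 0.19 for atg7, for the E1-like enzyme, and 0.12 for atg5, for the acceptor of Atg12. None of the 6 passed, and only atg8 was below an unadjusted p of 0.05. In the block fit atg12, atg4 and atg3 passed as well (adjusted p = 0.0233, 0.0279 and 0.0237). For atg3 the differences in the 3 pairs were 0.19, 0.23 and 0.20, while its SD within groups was 0.26 with NaHS and 0.24 untreated.

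The kinase that makes phosphatidylinositol 3-phosphate, the lipid mark of endosomes and autophagosomes, was represented by 2 of its subunits. The gene atg6 had 7.86, 7.998 and 7.77 on the NaHS arrays and 7.63, 7.79 and 7.67 on the untreated arrays, with overlap, and a log2 fold change of 0.18 ± 0.09 (SE, adjusted p = 0.323). The gene vps38 was at 0.04 (adjusted p = 0.886). Neither passed in the block fit. The gene of the kinase itself, pik3, is counted in the list of endosome and vacuole trafficking below. It was at 0.19 ± 0.07 (SE) and did not pass in limma (adjusted p = 0.201) or in the block fit (adjusted p = 0.0769).

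HOPS and CORVET are tethers with a shared core. CORVET holds endosomes together before they fuse and HOPS joins them, and autophagosomes, to the vacuole. Of the 8 genes measured, vps3 (SPCC364.05), for a subunit of CORVET, rose. Its signal was 8.56, 8.43 and 8.38 on the NaHS arrays and 8.01, 8.10 and 7.998 on the untreated arrays, so that the lowest NaHS value was 0.28 above the highest untreated value. It changed by 0.42 ± 0.08 (SE, adjusted p = 0.0305), and by 0.36 without replicate 1 of both groups. The gene vps8, for the other subunit proper to CORVET, was at 0.11 (adjusted p = 0.688). Of the shared core, pep3 (Vps18) was at 0.36 and passed in the block fit (adjusted p = 0.00737) and without replicate 1 of both groups (adjusted p = 0.0446), vps16 was at 0.13, vps33 at 0.12 and vps11 at -0.09. The HOPS genes vps41 and vam6 (Vps39) were at 0.05 and 0.02. In the 6 fits that left out 1 array vps3 did not pass (adjusted p between 0.0641 and 0.146), and with an intensity trend its adjusted p was 0.0612.

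ESCRT complexes sort ubiquitinated membrane proteins into vesicles inside the endosome. The polymer that pinches these vesicles off is built mainly of Vps32, also called Snf7, and vps32 rose. It had 10.44, 10.40 and 10.38 on the NaHS arrays and 10.11, 10.11 and 10.10 on the untreated arrays. The values within each group were very close, with an SD of 0.03 with NaHS and 0.0018 untreated, and the SE of limma also draws on the spread of the other probe sets. The log2 fold change of vps32 was 0.30 ± 0.06 (SE, adjusted p = 0.0403). Other ESCRT-III genes, vps20 and vps24, were at 0.30 and 0.17. For vps20 the groups overlapped and the SE was 0.27 (limma adjusted p = 0.649). The gene vps28 of ESCRT-I was at 0.25, and vps25 and vps36 of ESCRT-II were at -0.05 and -0.04. The gene vps4, for the ATPase that takes the polymer apart, was at 0.09. Among these other ESCRT genes vps20 and vps28 passed in the block fit (adjusted p = 0.0334 and 0.0282). Without 1 array vps32 did not pass in any of the 6 fits (adjusted p between 0.0889 and 0.182), nor did it with each array centred on its median (adjusted p = 0.0533).

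Retromer takes receptors such as Vps10 back from the endosome to the Golgi. All 5 of its genes had a log2 fold change above 0 (median 0.26), where 52.6% of all tested probe sets did. None passed, and 3 were higher at an unadjusted p below 0.05 (11.1% of all probe sets). The largest value was that of vps35, for the backbone of the part that binds cargo. It had 10.05, 9.82 and 9.44 on the NaHS arrays and 9.43, 9.34 and 9.31 on the untreated arrays. The NaHS arrays were spread over 0.61, and the lowest of them lay just above the untreated arrays. Its log2 fold change of 0.41 ± 0.16 (SE) did not pass (adjusted p = 0.202; 0.0443 with the replicate block), and the difference was 0.62 in replicate 1, 0.48 in replicate 2 and 0.13 in replicate 3. The genes vps26 and vps29 of the same part were at 0.38 and 0.05. The sorting nexin genes vps17 and vps5 were at 0.26 and 0.18. In the block fit vps26 and vps17 passed too (adjusted p = 0.0174 and 0.0237).

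The tether GARP receives at the Golgi what retromer sends back. None of its 4 genes passed in either fit, and 0 had an unadjusted p below 0.05. The gene vps51 had the lowest log2 fold change of the 55, -0.35 ± 0.43 (SE, adjusted p = 0.760), and the lowest mean signal. It had 6.30, 5.14 and 4.86 on the NaHS arrays and 6.36, 5.46 and 5.53 on the untreated arrays. Replicate 1 was the highest in both groups. In the fit without the block the 95% interval of the difference ran between -1.41 and 0.71. A change of the size seen at isp6 was thus not detectable for vps51 in that fit, in either direction. With the replicate block its SE was 0.12 (adjusted p = 0.0956). Without replicate 1 of both groups its log2 fold change was -0.49 (adjusted p = 0.0541). Leaving out NaHS replicate 1 gave -0.78 and leaving out untreated replicate 1 gave -0.06, the ends of its range over the 6 such fits. In 3 of these fits it was not the lowest, as vps71 or atg22 lay below it. The genes vps52, vps54 and vps53 were at 0.15, 0.06 and 0.02.

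SNAREs and the regulators of Rab GTPases bring about fusion at the endosome. The syntaxin gene pep12 had 9.55, 9.74 and 9.62 on the NaHS arrays and 9.26, 9.55 and 9.40 on the untreated arrays, with the groups touching but not overlapping. Its log2 fold change of 0.23 ± 0.10 (SE) did not pass (adjusted p = 0.255; 0.0222 with the replicate block). The genes vps901 and muk1, for exchange factors of Rab5-type GTPases, were at 0.20 and 0.18, pep7, for a tether with a FYVE domain, at 0.17 and vps45, for a partner of syntaxin, at -0.01. Of the 5 genes 0 had an unadjusted p below 0.05, and pep12 and vps901 passed in the block fit (adjusted p = 0.0481 for vps901).

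Of 7 genes with other roles, atg15 (SPAC23C4.16C) rose. It encodes a lipase that opens autophagic bodies inside the vacuole. Its signal was 9.66, 9.69 and 9.69 on the NaHS arrays and 9.42, 9.33 and 9.28 on the untreated arrays. The 3 NaHS arrays were within 0.03 of each other and at least 0.24 above every untreated array. It changed by 0.34 ± 0.07 (SE, adjusted p = 0.0414). Without 1 array it did not pass in any of the 6 fits (adjusted p between 0.0619 and 0.187), nor with each array centred on its median (adjusted p = 0.0603).

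The dynamin gene vps1 did not pass. It had 10.09, 9.64 and 9.45 on the NaHS arrays and 9.79, 9.16 and 9.08 on the untreated arrays, so that the groups overlapped and replicate 1 was the highest in each. Its log2 fold change was 0.38 ± 0.25 (SE), with an adjusted p of 0.453. In the block fit the SE was 0.05 and vps1 passed (adjusted p = 0.00999), as it did without replicate 1 of both groups (adjusted p = 0.0447). Its value was 0.20 with NaHS replicate 1 left out and 0.61 with untreated replicate 1 left out, the ends of the range over such fits.

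At the other end, atg22, for an exporter of amino acids from the vacuole, had 8.02, 7.92 and 7.70 on the NaHS arrays and 8.12, 8.09 and 7.995 on the untreated arrays. It was lower in all 3 pairs, at -0.19 ± 0.10 (SE), and did not pass (adjusted p = 0.373; 0.0670 with the replicate block). The gene vps71 belongs by its product to the chromatin remodelling complex Swr1 and not to the vacuole, in spite of its name. It had 8.23, 8.59 and 8.16 on the NaHS arrays and 8.27, 8.50 and 8.48 on the untreated arrays, with overlap, and lay at -0.09 (adjusted p = 0.817). The other values were 0.24 for vps55, 0.01 for vps1302 and -0.03 for vps66.

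**Figure D3:**
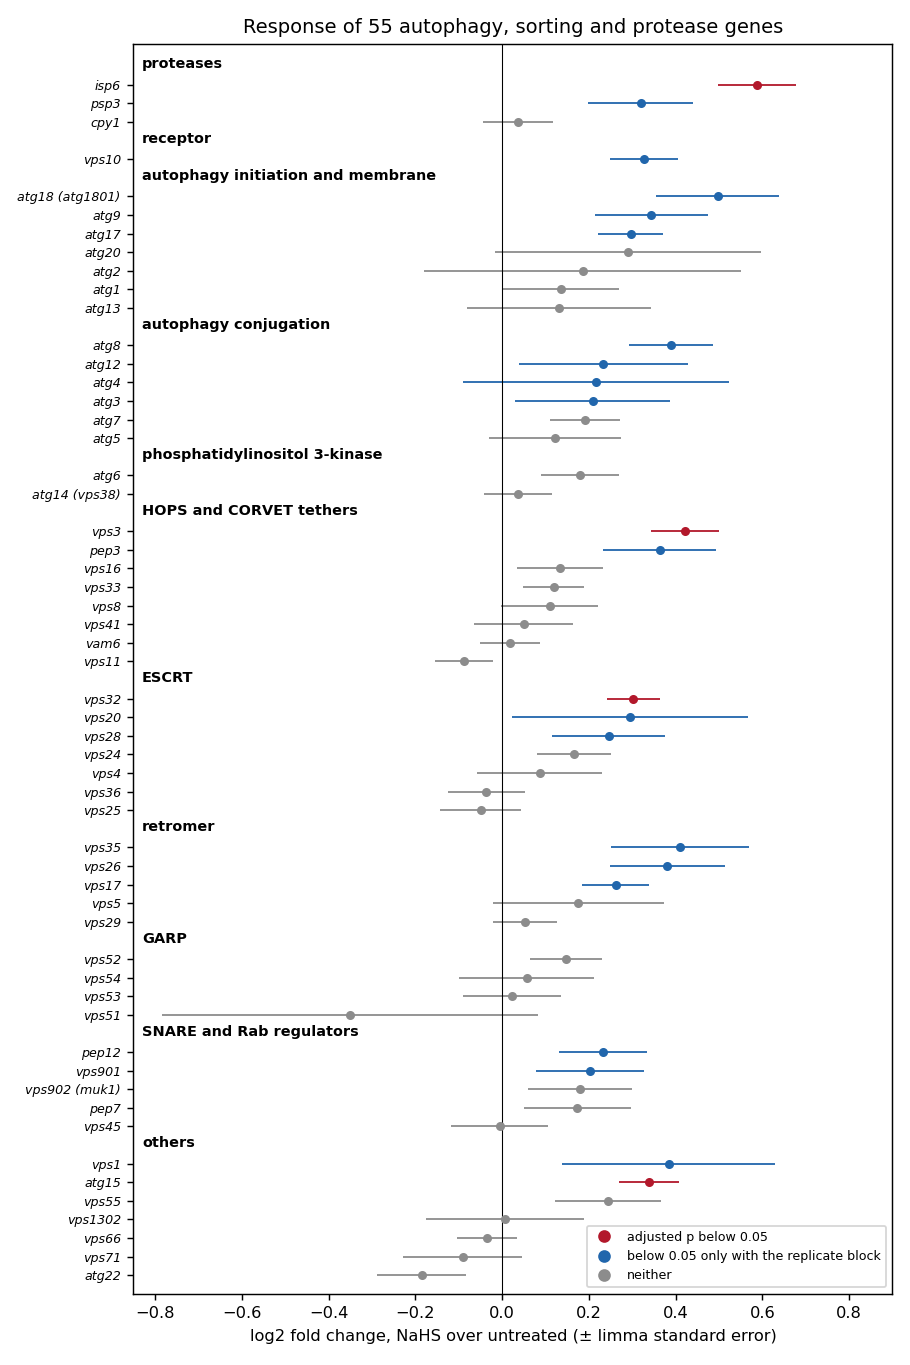
Log2 fold change (horizontal axis, NaHS over untreated, with the limma SE, n = 3 arrays per group) of all 55 genes by role, with newer names in brackets. Red marks the 4 genes that rose, blue the 18 that passed only with the replicate block, and grey the rest, and 47 of the points lie to the right of 0.

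Genes of the same routes that carry other names were taken from 5 lists drawn up by function. The list of endosome and vacuole trafficking held 14 measured genes that are not among the 55, of 20 such names. All 14 had a log2 fold change above 0 (median 0.23), where 52.6% of all probe sets did. Of the 14, 1 rose and 0 fell, where 3.97% of all probe sets rose and 3.67% fell. The unadjusted p was below 0.05 for 8 higher and 0 lower, where 11.1% of all probe sets were higher and 11.4% lower. The gene that rose was sst4, for the ESCRT-0 protein called Vps27 in budding yeast. It had 9.01, 8.82 and 8.75 on the NaHS arrays and 8.49, 8.44 and 8.36 on the untreated arrays, without overlap. Its log2 fold change was 0.43 ± 0.09 (SE, adjusted p = 0.0479). It passed in none of the 6 fits that left out 1 array (adjusted p between 0.0813 and 0.190), nor with an intensity trend (adjusted p = 0.0597) or with paired probe sets only (adjusted p = 0.0536). Its partner hse1 had 9.02, 9.28 and 9.18 on the NaHS arrays and 8.49, 8.79 and 8.81 on the untreated arrays, a log2 fold change of 0.46 ± 0.12 (SE, adjusted p = 0.0786). The ESCRT-III gene did4 was at 0.35 (adjusted p = 0.0717) and the SNARE gene fsv1 at 0.58 (adjusted p = 0.201). In the block fit 8 of the 14 rose and 0 fell, where 16.3% of all probe sets rose and 16.4% fell. They were hse1, sst4, did4 and fsv1 (adjusted p = 0.00592, 0.00656, 0.00660 and 0.0128), and gos1, ypt5, vti1 and ypt71, for SNAREs and Rab GTPases (adjusted p = 0.0210, 0.0244, 0.0373 and 0.0461). Without replicate 1 of both groups hse1, did4 and sst4 passed (adjusted p = 0.0244, 0.0291 and 0.0307), and did4 passed with an intensity trend (adjusted p = 0.0450). The genes named from these lists were singled out after their values had been seen.

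The other lists had 0 called genes in either direction in the fit without the block to all 6 arrays as deposited. Some genes were called with the block, to be read against the 16.3% of all probe sets that rose and the 16.4% that fell in that fit. Of all tested probe sets 52.6% were above 0, and at an unadjusted p below 0.05 11.1% were higher and 11.4% lower. The proton pump of the vacuole, the V-ATPase, had 14 measured genes of 17 names, 13 of them above 0, with a median of 0.09 and a highest value of 0.21 (vph2), and 0 were below an unadjusted p of 0.05. In the block fit 2 of them rose, vph2 and vma13 (adjusted p = 0.0299 and 0.0465), and 0 fell. TOR holds autophagy in check when nutrients are plentiful, and the list of TOR kinases and their nutrient regulators also holds inhibitors of TOR. Of its 25 names 19 were measured, 12 of them above 0, with a median of 0.05. At an unadjusted p below 0.05, 2 were higher and 1 lower. The ends of this list were -0.22 (psk1, for an S6 kinase) and 0.33 (tsc1, for an inhibitor of TOR), and in the block fit 5 rose (tsc1, gtr2, ste20, gad8 and cpp1) and 2 fell (psk1 and bit61), with adjusted p between 0.0130 and 0.0417. Without replicate 1 of both groups cpp1 alone passed (adjusted p = 0.0373). Peptidases and transporters of the vacuole under other names had 12 of 19, 11 above 0 and a median of 0.06, with 3 higher and 0 lower at an unadjusted p below 0.05. The nearest to the threshold were stm1 and fnx2, for amino acid transporters of the vacuole, at 0.29 and 0.28 (adjusted p = 0.0654 and 0.0581). Both passed in the block fit (adjusted p = 0.0169 and 0.0161), as did hmt1, for a transporter of the vacuolar membrane (adjusted p = 0.0391), and 0 fell. The gene stm1 also passed with quantile normalization (adjusted p = 0.0406) and with an intensity trend (adjusted p = 0.0295). The list of autophagy factors held 13 other names, of which 3 were measured, ykt6, vac8 and ypt1. Their median was 0.07, and 0 were below an unadjusted p of 0.05. Names were matched only by their symbol in the array annotation. A name without a match may thus belong to a gene measured under another symbol. The genes atg10 and atg16, for further factors of conjugation, were not analysed here.

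For 31 of the 55 genes the arrays with number 1 differed from the others by more than the NaHS arrays differed from the untreated ones. This was not counted over all tested probe sets, so that it cannot be called a trait of these genes. The absolute offset of replicate 1 from the mean of replicates 2 and 3 had a median of 0.20 in the NaHS group and of 0.21 in the untreated group over the 55 genes, and of 0.20 in both groups over all tested probe sets. It was positive and large for vps51 (1.29 with NaHS and 0.87 untreated), atg2 (0.79 with NaHS and 0.97 untreated) and atg4 (0.77 with NaHS and 0.72 untreated), and most negative for vps20 (-0.59 with NaHS and -0.75 untreated). The offsets of both groups went together across genes, with a correlation of 0.92 over the 55 genes, which share the same arrays and are not independent. For the genes that rose they were small, between -0.17 (isp6, untreated) and 0.15 (vps3, NaHS). In the fit without the block an offset adds to the spread within groups, so that genes with small offsets pass more readily there.

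**Figure D4:**
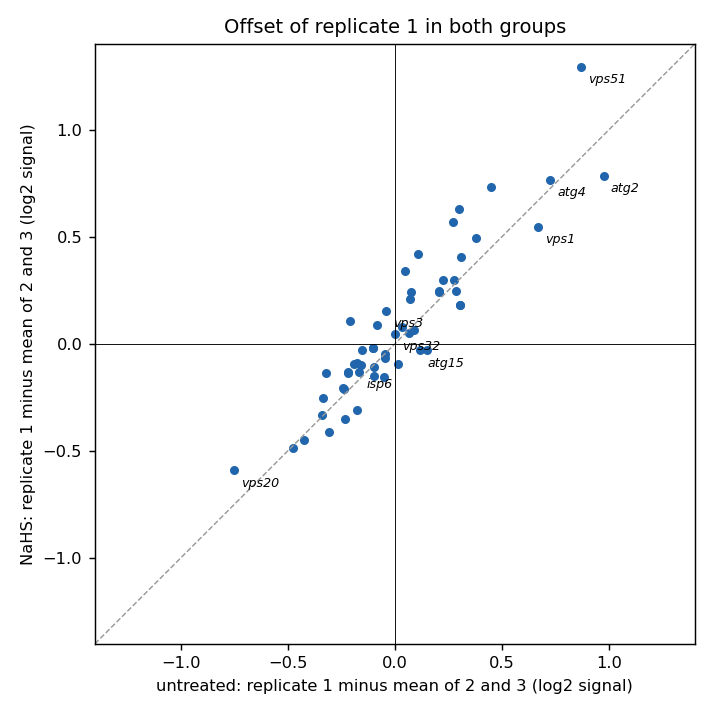
Offset of replicate 1 from the mean of replicates 2 and 3 in log2 signal for each of the 55 genes, with the NaHS group on the vertical axis and the untreated group on the horizontal axis, and the line of equal offsets dashed. Points run along the line, with vps20 at the lower left and vps51, atg2 and atg4 at the upper right. The 4 genes that rose lie near 0 on both axes, and the fit that called them favours small offsets.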

How the data were processed

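The authors' array service, Shanghai Biochip, made and normalized the signals (MAS5), and they were deposited as log2 values per probe set. No source used here states the MAS5 version, the scaling target or the detection calls. Blank cells, found in 8 of the tested probe sets and in 0 of the 55 genes, were set to 0. Of the 10928 probe sets, 2937 are paired with *S. pombe* genes, 2601 with *S. cerevisiae* genes, and 213 are controls. The 4965 tested were those paired with *S. pombe* genes and 2028 unlisted ones whose mean exceeded 3.67, a limit that 99% of *S. cerevisiae* probe sets stayed under. All 55 genes were matched to RefSeq (assembly ASM294v3) by gene ID.

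NaHS-treated and untreated arrays, 3 biological replicates each, were set against each other in limma 3.58.1 (R 4.3.3, two-sided, 4 residual and 2.016 prior degrees of freedom, Benjamini-Hochberg adjustment over all tested probe sets). SAM, which the methods name, was not run. With 3 arrays per group, their number limits precision. Python 3.11.15, pandas 2.3.3 and matplotlib 3.10.9 served for tables and figures.

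Replicate numbers come from the labels. Deviations from the group means, over tested probe sets, correlated at 0.867, 0.578 and 0.598 for replicates 1, 2 and 3, all over 0.1, so the numbers were taken to pair the cultures. Across numbers, replicates 2 and 3 correlated at 0.592 and 0.637, so what the numbers share is mostly the offset of replicate 1. That is as high as within numbers 2 and 3, so the pairing of those cultures rests on the labels and is not shown by the correlations.

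The genes and lists were chosen with earlier results of these data known. Genes described with a value for every array were the proteases, those called, the 3 highest and 3 lowest fold changes, the highest and lowest signals, and the largest change of each role. Alternatives were the replicate block, leaving out each array, quantile normalization, median centring, blanks as missing, 2 other filters, an intensity trend and, added after seeing the data, leaving out both arrays of replicate 1.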

Additional observations from a re-analysis of the deposited data

How the results depend on the processing

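The replicate block raised the genes called higher among the 55 to 22, and all tested probe sets to 807 higher and 815 lower, against 197 and 182 without it. Without replicate 1 of both groups, an alternative chosen after seeing the data, the counts were 8 genes, 346 and 364. Leaving out 1 array gave 0 to 1 of the 55 genes higher, 67 to 134 probe sets higher and 24 to 97 lower, a median log2 fold change of the 55 genes of 0.14 to 0.23, and for isp6 a log2 fold change of 0.53 to 0.63. Such a fit has fewer arrays and no block. Quantile normalization moved the median to 0.14, and centring each array left 2 of the genes called, isp6 and vps3; the cause was not tested. With paired probe sets only, 92 of the 2937 probe sets tested were higher and 77 lower. Fewer probe sets were tested there, but the cause of the smaller counts was not tested. The log2 fold change of cpy1 lay between -0.0042 (without NaHS replicate 3) and 0.0946 when 1 array was left out. The genes called lower stayed at 0 of the 55 in every setting. Blanks as missing, a minimum signal for paired probe sets and paired probe sets only changed no call among the 55 genes. No gene had another probe set, so averaging probe sets was not run. Calls that the block changed are given beside the genes, and it changed no other call among the 55 genes or the lists.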
